A study of Mus musculus with 4 samples.

Results

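Binding of JunB, BATF and IRF4 was described around 9 chemokine receptor genes (Ccr7, Cxcr5, Ccr2, Ccr6, Cxcr3, Ccr4, Ccr8, Ccr9 and Ccr10) of the 22380 protein-coding genes in the mouse annotation. Every ChIP-seq peak whose centre lay within 50 kb of any of the 18 annotated transcription start sites (TSSs) of these genes was taken, which gave 204 of the 103355 peaks in the 4 peak lists. ChIP-seq maps where a protein sits on DNA by sequencing the fragments that an antibody to it pulls down, and a peak is a stretch where those fragments pile up. The lists came from splenic CD4+CD25+ regulatory T (Treg) cells of C57BL/6 mice, stimulated for 60 h with antibodies to CD3 and CD28 and with IL-2. Junb-sufficient cells gave 1 library for each of the 3 factors, and Junb-deficient cells gave 1 library, for IRF4.

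The labels give the genotypes as Foxp3cre JUNB+/+ and Foxp3cre JUNBFl/Fl, in which Cre is driven by the Treg gene Foxp3. The study's account of the same experiment names Junb fl/fl as the controls and, as the deficient mice, Cd4 Cre Junb fl/fl, in which Cre is active in T cells at large, so the Cre driver of these libraries is uncertain. One label field names IRF4 for the BATF library and BATF for the IRF4 library of Junb-sufficient cells. The sample titles, the study's list of libraries and the tag directories recorded in the lists all go against that field and were followed. With 1 library per condition there is no replicate spread and no test between genotypes, and the intervals given for shares of peaks (95%, exact Clopper-Pearson) cover counting error only. The lists hold positions of binding and not expression, so the cell label was not checked against Treg markers, and a site bound in fewer cells cannot be told apart from a site bound more weakly in each cell. Libraries held 21127029 to 27399986 tags, and 13570 to 31093 peaks were called in each.

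Chemokine receptors are G protein-coupled receptors that steer leukocytes along gradients of chemokines. Ccr7 and Cxcr5 direct T cells within lymphoid organs, and Ccr2, Ccr6 and Cxcr3 direct them to inflamed tissue. Ccr4, Ccr8, Ccr9 and Ccr10 are linked to homing to skin and mucosa. JunB and BATF are AP-1 family proteins that bind DNA as a pair, and IRF4 binds weakly alone but strongly beside such a pair at AP-1-IRF composite elements (AICEs).

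The sequences of the JunB peaks on which the account turns are given first, all from the forward strand of mm9, with distances in kb from the nearest TSS of the gene (a negative distance is upstream). All are whole JunB peaks of 151 bp. Capitals mark matches to 3 searched motifs on either strand. The motifs were AP-1 (TGAGTCA or TGACTCA), AICE (GAAA directly followed by TGANTCA or TGANTAA, or TTTC and, after 4 bases, TGANTCA or TGANTAA) and an IRF repeat (GAAA, 2 bases, GAAA). An AP-1 match can be part of an AICE match. The first set holds the JunB peak that stood highest in its list at each gene. That of Ccr6 overlaps a UTR of Fgfr1op and is not shown, and that of Ccr2 is not reported here.
Ccr7 +25.6 kb, chr11:98990686-98990836: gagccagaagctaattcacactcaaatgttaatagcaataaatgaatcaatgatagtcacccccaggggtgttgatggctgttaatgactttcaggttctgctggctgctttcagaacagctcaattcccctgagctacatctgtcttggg
Cxcr5 -2.03 kb, chr9:44336457-44336607: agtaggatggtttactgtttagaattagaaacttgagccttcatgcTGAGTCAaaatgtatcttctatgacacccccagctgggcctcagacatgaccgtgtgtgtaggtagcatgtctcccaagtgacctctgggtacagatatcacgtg
Cxcr3 -33 kb, chrX:98962522-98962672: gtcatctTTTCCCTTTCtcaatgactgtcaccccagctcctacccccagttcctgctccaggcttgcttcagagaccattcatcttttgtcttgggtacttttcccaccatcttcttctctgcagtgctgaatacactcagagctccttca
Ccr4 +23.9 kb, chr9:114381195-114381345: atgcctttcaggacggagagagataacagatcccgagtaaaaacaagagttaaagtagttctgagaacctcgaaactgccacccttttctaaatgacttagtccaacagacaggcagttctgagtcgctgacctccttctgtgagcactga
Ccr8 -17.5 kb, chr9:119983720-119983870: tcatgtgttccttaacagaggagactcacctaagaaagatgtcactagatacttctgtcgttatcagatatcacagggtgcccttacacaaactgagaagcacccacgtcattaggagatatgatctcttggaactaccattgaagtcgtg
Ccr9 -26.2 kb, chr9:123650025-123650175: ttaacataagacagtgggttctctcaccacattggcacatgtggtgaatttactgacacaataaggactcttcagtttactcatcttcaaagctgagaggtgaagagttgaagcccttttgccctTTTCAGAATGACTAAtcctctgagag
Ccr10 -19.4 kb, chr11:101056068-101056218: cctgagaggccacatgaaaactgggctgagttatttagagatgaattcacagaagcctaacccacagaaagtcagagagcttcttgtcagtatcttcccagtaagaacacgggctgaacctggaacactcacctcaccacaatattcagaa
Of these 7 peaks, that of Cxcr5 holds 1 AP-1 match, that of Cxcr3 holds an IRF repeat and that of Ccr9 holds an AICE. The other 4 hold none of the searched letters.

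The next set shows the JunB peaks that hold AP-1 at an IRF4 peak with no counterpart in Junb-deficient cells.
Ccr2 -2.5 kb, chr9:124014114-124014264: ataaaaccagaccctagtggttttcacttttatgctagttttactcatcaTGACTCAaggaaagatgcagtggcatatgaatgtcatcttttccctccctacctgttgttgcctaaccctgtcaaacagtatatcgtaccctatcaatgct
Cxcr3 +4.1 kb, chrX:98925435-98925585: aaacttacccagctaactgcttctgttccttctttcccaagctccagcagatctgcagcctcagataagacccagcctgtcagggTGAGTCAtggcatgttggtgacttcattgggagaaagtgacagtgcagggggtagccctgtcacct
Another set, chosen after the matches were seen, shows the remaining peaks with an AICE.
Ccr7 +4.39 kb, chr11:99011925-99012075: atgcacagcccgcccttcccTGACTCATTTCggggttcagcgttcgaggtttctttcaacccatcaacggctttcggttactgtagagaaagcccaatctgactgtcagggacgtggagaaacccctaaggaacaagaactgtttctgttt
Ccr2 -33.4 kb, chr9:123983225-123983375: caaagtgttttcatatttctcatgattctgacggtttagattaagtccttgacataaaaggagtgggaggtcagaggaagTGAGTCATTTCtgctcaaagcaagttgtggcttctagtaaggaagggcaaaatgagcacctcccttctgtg
Ccr4 +40.3 kb, chr9:114364762-114364912: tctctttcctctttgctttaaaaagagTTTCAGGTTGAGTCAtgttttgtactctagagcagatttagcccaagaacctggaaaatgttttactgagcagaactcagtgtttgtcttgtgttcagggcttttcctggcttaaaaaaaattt
Ccr8 -1.54 kb, chr9:119999633-119999783: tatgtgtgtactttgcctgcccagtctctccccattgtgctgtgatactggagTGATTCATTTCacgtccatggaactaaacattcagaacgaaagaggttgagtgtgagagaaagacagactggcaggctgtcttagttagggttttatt
The AICE-bearing peaks of Ccr7, Ccr2 and Ccr9 overlapped BATF and IRF4 peaks, that of Ccr8 overlapped an IRF4 peak only, and that of Ccr4 overlapped neither.

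All 9 genes had peaks in all 4 lists, and each had at least 1 JunB peak that was shared with BATF and with IRF4 of Junb-sufficient cells. Over all protein-coding genes, 64.8% had a JunB peak within 50 kb, 48.9% a BATF peak, 74.0% an IRF4 peak of Junb-sufficient cells and 35.1% a JunB peak shared with both. Around the receptor genes, 53 peaks were listed for JunB, 39 for BATF, 57 for IRF4 with JunB present and 55 for IRF4 without it. The median receptor gene had 7, 5, 7 and 7 of these, against 1, 0, 2 and 2 for the median protein-coding gene. Ccr7 was the richest, with 11 JunB peaks, a number that 0.934% of all genes reached, and Ccr10 the poorest, with 2 JunB peaks, a number that 39.0% of all genes reached. Receptor genes lie among other genes, and for 117 of the 204 peaks the receptor itself was the nearest protein-coding gene, while 87 lay nearer to another gene.

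**Figure D1:**
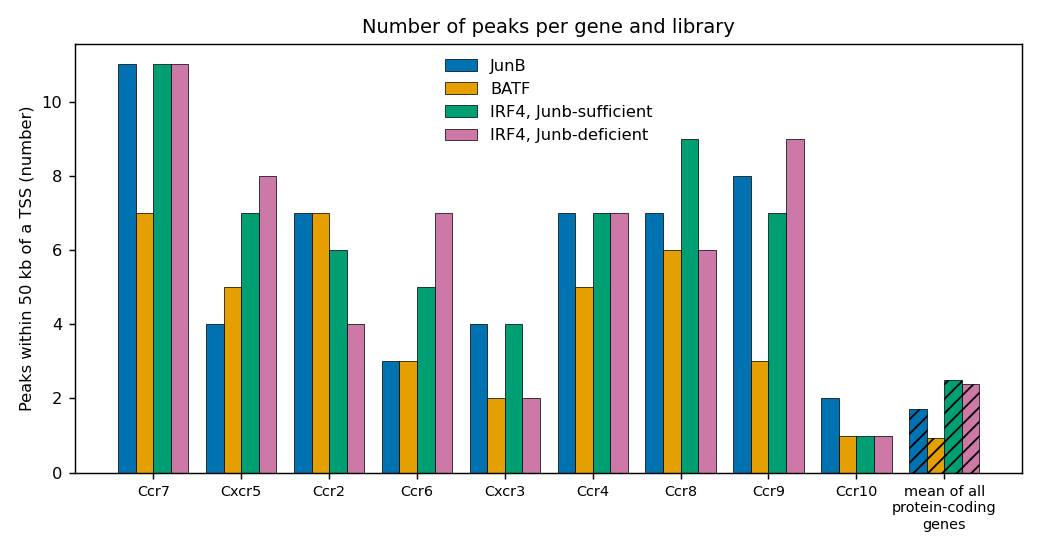
Number of peaks within 50 kb of a TSS of each receptor gene in the 4 libraries, 1 bar per library, with the mean over 22380 protein-coding genes as hatched bars at the right. Ccr7 has 11, 7, 11 and 11 peaks and Ccr10 has 2, 1, 1 and 1, against means of 1.72, 0.934, 2.49 and 2.39.

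Merged where they overlapped, the 204 peaks fell into 79 sites. Of these, 28 carried JunB, BATF and IRF4, 10 JunB and IRF4, 8 BATF and IRF4, and 1 JunB and BATF. A further 19 carried IRF4 alone, 11 JunB alone and 2 BATF alone. More than 1 factor was listed at all 4 sites of Cxcr3, at 11 of 14 of Ccr7 and at 6 of 8 of Cxcr5, whereas Ccr6, Ccr8 and Ccr9 had 4, 4 and 5 sites with IRF4 alone.

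**Figure D2:**
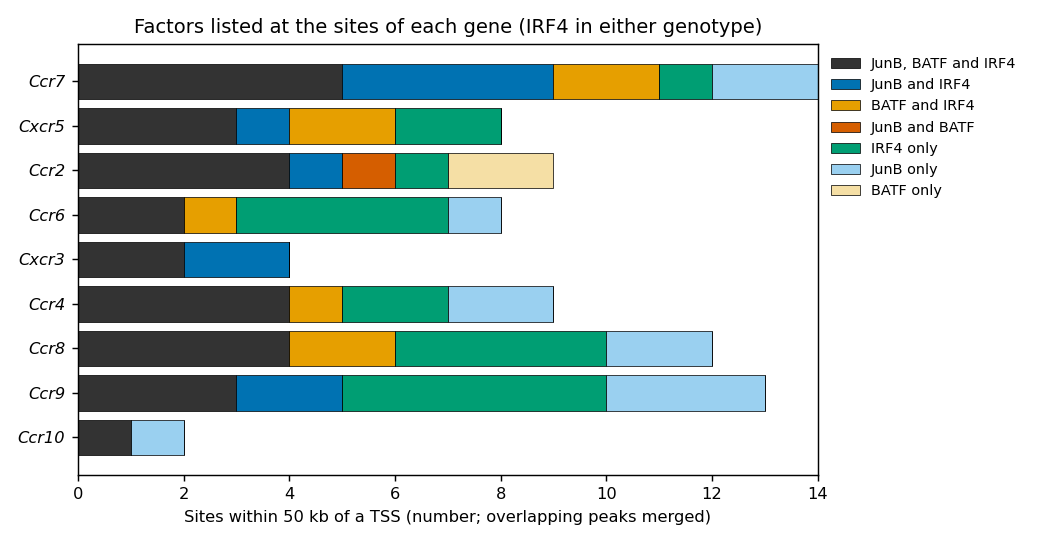
Number of merged sites within 50 kb of a TSS of each receptor gene, coloured by the factors listed there, with IRF4 counted from either genotype. Sites with JunB, BATF and IRF4 number 5 at Ccr7, 4 each at Ccr2, Ccr4 and Ccr8, 3 each at Cxcr5 and Ccr9, 2 each at Ccr6 and Cxcr3, and 1 at Ccr10.

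Peaks are described below by their place in the list, since the lists keep no height for single peaks. The lists do not name their order, but HOMER, the peak caller, ordinarily writes peaks in falling order of its own score, and the first places are read here as the strongest peaks. Peaks with equal standing are listed by chromosome, so a place is exact only within a run of such ties, which spanned at most 6.81% of the list for the JunB peaks here and at most 2.26% for the others. For comparisons between peaks of like standing, each list was cut by place into 10 bins of equal size. Of Junb-sufficient IRF4 peaks at JunB over the whole genome, 4.95% in the first bin and 66.4% in the last had no Junb-deficient counterpart. The map of peaks by distance shows all 204 peaks.

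**Figure D3:**
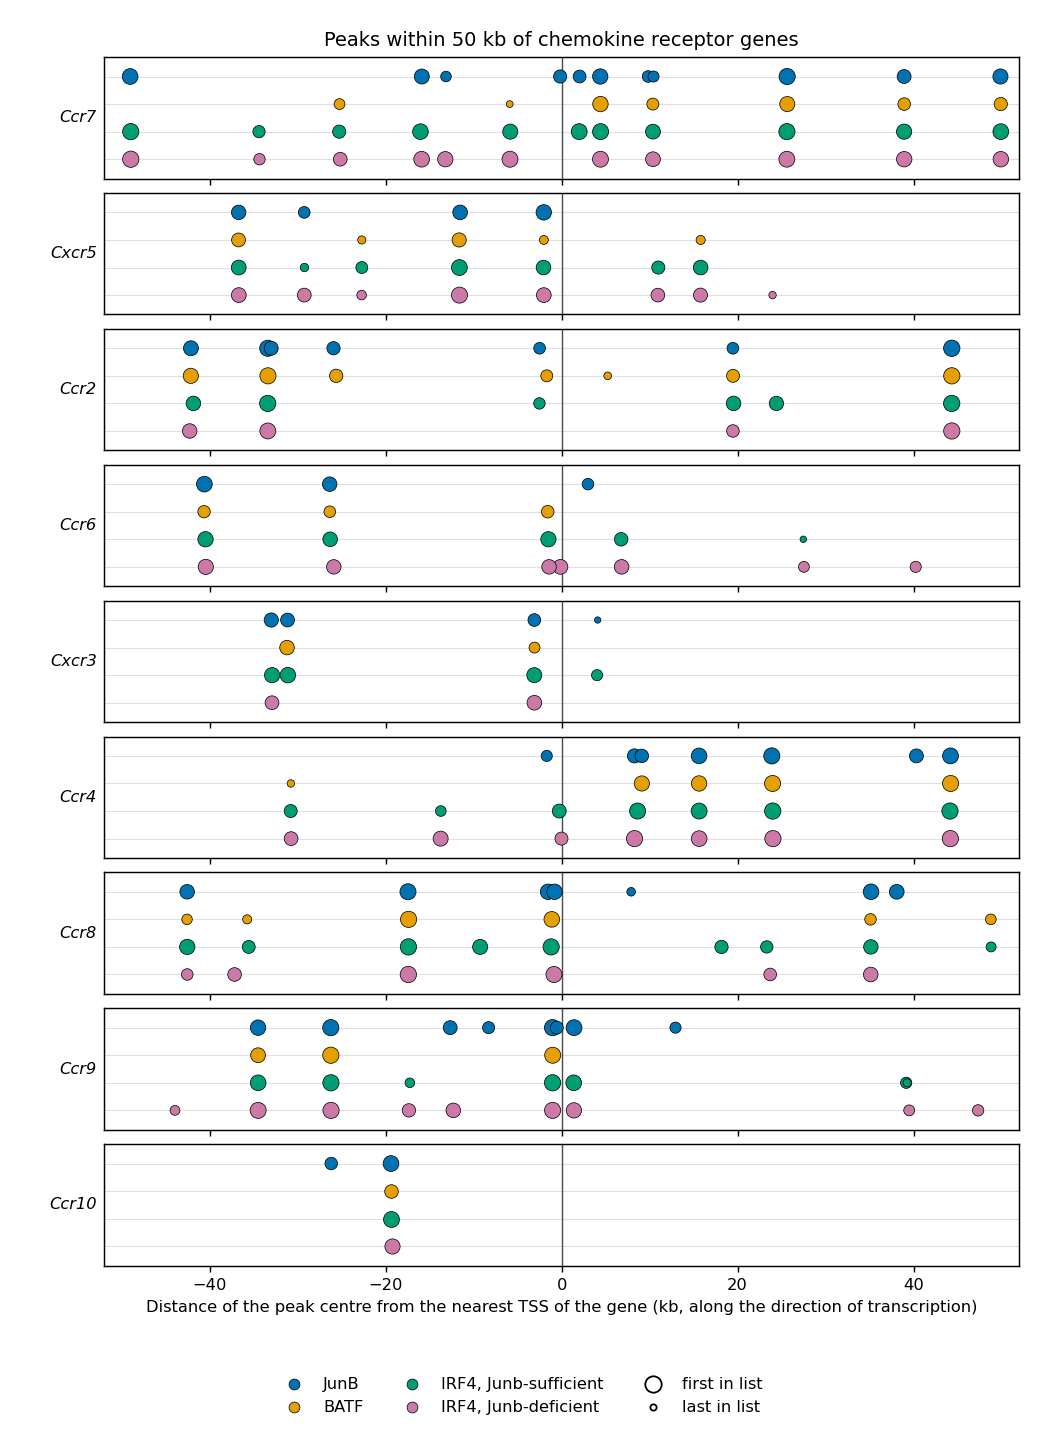
Peaks of the 4 libraries around each receptor gene, by distance of the peak centre from the nearest TSS of that gene in kb along the direction of transcription, with larger points for peaks nearer to the top of their list. Columns of 4 points are sites bound by all 3 factors in Junb-sufficient cells and by IRF4 in Junb-deficient cells, such as the site -33.4 kb from Ccr2; Ccr9 has 4 TSSs, and each peak is drawn relative to the nearest.

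Ccr7, the receptor for CCL19 and CCL21 that holds T cells in lymph nodes (chr11:99005510-99016391, minus strand), had 11 JunB, 7 BATF, 11 IRF4 peaks in Junb-sufficient and 11 in Junb-deficient cells. Of the JunB peaks, 5 were shared with BATF and IRF4 and all 5 lay in or beyond the gene, at +4.39, +10.4, +25.6, +38.9 and +49.9 kb. The strongest, at +25.6 kb, stood at place 627 in the JunB list, 2329 in the BATF list, 904 in the IRF4 list of Junb-sufficient cells and 1916 in that of Junb-deficient cells. The intronic site at +4.39 kb, which carries the AICE printed above, stood at places 4163, 1766, 1381 and 1771 in the same order. BATF was thus highest at the intronic site and JunB at the distal one.

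The region upstream of Ccr7 was bound differently. The IRF4 peaks of both genotypes at -49.0, -16.0, -25.3 and -34.4 kb carried, in that order, JunB without BATF at the first 2, BATF without JunB at the next and neither at the last. An IRF4 peak at -5.83 kb overlapped a BATF peak but no JunB peak and stood at place 5192 in Junb-sufficient and 1378 in Junb-deficient cells, so it was higher in the Junb-deficient list. The JunB peak closest to the TSS, at -0.164 kb (place 12106), overlapped no BATF or IRF4 peak. Smarce1 was the nearest gene for the peaks at -34.4 and -49.0 kb, and Tns4 for those at +38.9 and +49.9 kb.

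A single IRF4 peak of Ccr7 lacked a counterpart in Junb-deficient cells. It lay in the intron at +2.0 kb (chr11:99014085-99014697) at place 1869 of 31093, overlapped a JunB peak at place 13287 and no BATF peak. In the same bin of the list, 4.95% of IRF4 peaks at JunB over the whole genome lacked a counterpart. The nearest IRF4 peak of Junb-deficient cells was centred 2418 bp away, at the intronic AICE site. In turn, Junb-deficient cells had an IRF4 peak at -13.2 kb (place 4176) that Junb-sufficient cells lacked, although JunB was listed there (place 20144).

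Cxcr5, the receptor for CXCL13 that admits cells to B cell follicles (chr9:44319871-44334504, minus strand), had 4 JunB, 5 BATF, 7 IRF4 peaks in Junb-sufficient and 8 in Junb-deficient cells. All 4 JunB peaks lay upstream and overlapped IRF4 in both genotypes. Those at -2.03, -11.5 and -36.7 kb were also shared with BATF. The peak at -2.03 kb was the highest for JunB (place 3958) and among the lower ones for BATF (place 11202 of 13570). The IRF4 peak at -11.6 kb was the highest for IRF4 in both genotypes (place 2417 in Junb-sufficient and 1192 in Junb-deficient cells).

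None of the 7 IRF4 peaks of Cxcr5 was missing from the Junb-deficient list, and 1 was listed in Junb-deficient cells only, at +24.0 kb in an intron of Bcl9l, at place 27078 of 29033. Places still moved in both directions. The IRF4 peak at -29.2 kb, at JunB, went from 86.0% of the way down the Junb-sufficient list to 33.5% of the Junb-deficient list, and the peak at -22.7 kb, at BATF without JunB, went from 55.2% to 76.8%. The remaining sites, at +11 kb in the intron (IRF4 alone) and at +15.8 kb (BATF and IRF4), were listed in both genotypes.

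Ccr2, the receptor for CCL2 that draws cells to inflamed tissue (chr9:124016689-124028296, plus strand), had 7 JunB, 7 BATF, 6 IRF4 peaks in Junb-sufficient and 4 in Junb-deficient cells. The AICE-bearing site at -33.4 kb stood at place 763 in the JunB list, 341 in the BATF list, and 330 and 1886 in the IRF4 lists of Junb-sufficient and Junb-deficient cells. It was thus within the first 10% of all 4 lists.

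The JunB peak at -42.1 kb, also shared with BATF and IRF4, was weaker, at place 5786 of the JunB list. The JunB peak at -33.0 kb touched the BATF peak of the -33.4 kb site (place 341) but no IRF4 peak, and it was merged into that site. A JunB peak with BATF at -25.9 kb overlapped no IRF4 peak. Near the gene, 2 BATF peaks, at -1.68 and +5.24 kb, stood apart from both other factors. Ccr2 was the nearest protein-coding gene for 11 of its 24 peaks.

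Of the 6 IRF4 peaks of Ccr2, 2 lacked a counterpart in Junb-deficient cells. That at -2.52 kb (chr9:124013862-124014474, place 18600) coincided with the JunB peak at -2.5 kb that holds an AP-1 match and was the IRF4 peak nearest to a Ccr2 TSS. In its bin of the list, 39.7% of peaks at JunB lacked a counterpart. Of the kept IRF4 peaks, that at -33.4 kb went from 1.06% to 6.50% of the list and that at -41.8 kb from 24.1% to 25.4%.

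Ccr6, the receptor for CCL20 (chr17:8429077-8449992, plus strand), had 3 JunB, 3 BATF, 5 IRF4 peaks in Junb-sufficient and 7 in Junb-deficient cells. IRF4 peaks also outnumbered those of each AP-1 protein over all protein-coding genes (means of 1.72, 0.934, 2.49 and 2.39 in the same order). JunB was shared with BATF and IRF4 at -40.6 kb (place 2665), over a UTR of Fgfr1op, and at -26.4 kb (place 7451). The remaining JunB peak, at +3.0 kb in the intron (place 17334), overlapped neither factor. Closest to the first TSS was a site at -1.5 kb with IRF4 (place 4749 in Junb-sufficient and 7176 in Junb-deficient cells) and BATF (place 6529) but no JunB.

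All 5 IRF4 peaks of Ccr6 were kept by overlap. For that at -26.3 kb, the Junb-deficient peak was centred at -25.9 kb and did not overlap the JunB peak at -26.4 kb. In turn, 2 peaks appeared in the Junb-deficient list only. One, at place 6244 of 29033 and -0.131 kb from a TSS (chr17:8434958-8435562), covered an internal TSS of Ccr6 and overlapped no JunB or BATF peak. The other, at +40.2 kb, lay in an intron of Brp44l at place 18081. The IRF4 peak at +27.5 kb was among the last of the Junb-sufficient list (98.9% of the way down) and stood at 65.7% in Junb-deficient cells.

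Cxcr3, the receptor for CXCL9, CXCL10 and CXCL11 that marks Th1-type responses (chrX:98926874-98929608, minus strand), had 4 JunB, 2 BATF, 4 IRF4 peaks in Junb-sufficient and 2 in Junb-deficient cells. All 4 IRF4 peaks of Junb-sufficient cells lay at JunB peaks, 2 of them also at BATF. The shared site at -3.1 kb, the closest to the TSS in all 4 lists, stood at place 13770 (JunB), 8808 (BATF), 5687 (IRF4, Junb-sufficient) and 6746 (IRF4, Junb-deficient). No peak of Cxcr3 was within the first 10% of a list.

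The IRF4 peaks of Cxcr3 without a counterpart were both at JunB. That at -31.1 kb (chrX:98960409-98961021, place 3458) carried JunB (place 9893) and BATF (place 3327), and was the only JunB, BATF and IRF4 site of the 9 genes at which no IRF4 peak of Junb-deficient cells was listed. The nearest IRF4 peak of Junb-deficient cells was centred 1801 bp away, at the neighbouring site at -32.9 kb, which itself went from 15.6% to 33.9% of the list. In the bin that held both, 13.1% of IRF4 peaks at JunB lacked a counterpart. The second unmatched peak, at +4.04 kb (chrX:98925267-98925879, place 19500), covered the AP-1-bearing JunB peak printed above, which was itself one of the last in the JunB list (place 29517 of 29659). Thus 2 of the 4 IRF4 peaks of Cxcr3 were kept, each lower in the Junb-deficient list.

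Ccr4, the receptor for CCL17 and CCL22 that is prominent on skin-homing and Treg cells (chr9:114399434-114405662, minus strand), had 7 JunB, 5 BATF, 7 IRF4 peaks in Junb-sufficient and 7 in Junb-deficient cells. Its strong sites lay in or towards the neighbouring gene Glb1. The site at +23.9 kb stood at place 844 (JunB), 554 (BATF), 252 (IRF4, Junb-sufficient) and 419 (IRF4, Junb-deficient), and the site at +44.2 kb at places 2053, 478, 397 and 358. The site at +15.6 kb stood at places 2952, 1815, 1789 and 2798. All 3 were thus within the first 15% of every list.

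Nearer the gene, JunB peaks at +8.28 and +9.12 kb flanked an IRF4 peak at +8.64 kb. The first overlapped that peak without BATF and the second overlapped a BATF peak (place 2165) without IRF4. The JunB peaks at +40.3 kb, with an AICE, and at -1.69 kb overlapped no BATF or IRF4 peak. An IRF4 peak covered the upstream TSS of Ccr4 in both genotypes, without JunB or BATF (place 10007 in Junb-sufficient and 12459 in Junb-deficient cells). All 7 IRF4 peaks were kept and none was listed in Junb-deficient cells only. The peak at -13.7 kb, IRF4 alone, went up from 67.4% to 18.4% of the list.

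Ccr8, the receptor for CCL1 that is characteristic of Treg cells in tissue (chr9:120001251-120004024, plus strand), had 7 JunB, 6 BATF, 9 IRF4 peaks in Junb-sufficient and 6 in Junb-deficient cells. The strongest site, at -17.5 kb between Ccr8 and Cx3cr1, stood at place 1178 (JunB), 243 (BATF), 156 (IRF4, Junb-sufficient) and 146 (IRF4, Junb-deficient), and held none of the searched motifs. Other JunB peaks shared with BATF and IRF4 lay at +35.2 kb near Rpsa (place 2955) and at -42.5 kb over a UTR of Cx3cr1 (place 7279).

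Just upstream of the Ccr8 TSS, JunB peaks at -1.54 kb (place 3793, with an AICE) and -0.805 kb (place 3966) lay on either side of a BATF peak at -1.11 kb (place 1398). The first overlapped the IRF4 peak of Junb-sufficient cells at -1.19 kb (place 659) and the second overlapped BATF and the IRF4 peak of Junb-deficient cells at -0.867 kb (place 1279). These overlapping peaks form 1 site with all 3 factors. The centre of the IRF4 peak was listed closer to the TSS in Junb-deficient cells.

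Ccr8 was the nearest protein-coding gene for 7 of its 28 peaks. Its 9 IRF4 peaks in Junb-sufficient cells were a number that 1.54% of all genes reached. Of these peaks, 4 lacked a counterpart, a number that 2.18% of all genes reached. That percentage takes no account of how many IRF4 peaks each gene had. Of the 4, only that at -9.26 kb had Ccr8 as its nearest gene, and none was at a JunB peak. Those at -9.26 kb (place 5719) and +18.2 kb (place 12327), 73 bp from a TSS of Slc25a38, carried IRF4 alone. Those at -35.6 kb (place 13579), in an intron of Cx3cr1, and +48.8 kb (place 22864), near Mobp, carried BATF. In the bins of the list that held them, 8.37%, 20.5%, 27.2% and 50.9% of IRF4 peaks away from JunB lacked a counterpart. The 4 IRF4 peaks at JunB were all kept. One of them, at -42.5 kb, went from 14.5% to 58.5% of the list, the largest fall among the 47 kept peaks, and 6.42% of kept peaks in its bin fell as far. An IRF4 peak of Junb-deficient cells only was listed at -37.2 kb (place 10346), centred 1609 bp from the unmatched peak at -35.6 kb.

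Ccr9, the receptor for CCL25 that guides cells to the small intestine (chr9:123587557-123691089, plus strand), had 8 JunB, 3 BATF, 7 IRF4 peaks in Junb-sufficient and 9 in Junb-deficient cells. One of its 4 annotated TSSs lies far upstream of the rest, so most of these peaks fall in a long intron that also spans Lztfl1. The sites at -26.2 and -1.03 kb were of like strength, at places 588 and 604 (JunB), 185 and 555 (BATF), 434 and 280 (IRF4, Junb-sufficient) and 712 and 1024 (IRF4, Junb-deficient). Another site shared by the 3 factors, at -34.5 kb, stood at places 3795, 2933, 2970 and 1409. At +1.42 kb, JunB with an AP-1 match (place 2133) and IRF4 (places 2912 and 4171) were listed without BATF.

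The IRF4 peaks of Ccr9 away from JunB were weak in Junb-sufficient cells, all 3 more than 50% of the way down the list. Those at -17.2 kb and at +39.2 kb from the far upstream TSS, 13 bp from a TSS of Lztfl1, were kept. That at +39.3 kb from the last TSS (place 27303), over a UTR of Cxcr6, was the only one without a counterpart. Junb-deficient cells had 3 IRF4 peaks of their own. That at -12.3 kb (place 7017) overlapped a JunB peak, and those at +47.3 kb (place 17470) and -43.9 kb (place 21720) overlapped neither JunB nor BATF. A number of 3 such peaks was reached by 5.54% of all genes, and a number of 9 Junb-deficient IRF4 peaks of any kind by 1.15%. The JunB peaks at -0.546 and -8.29 kb, and at +12.9 kb from the far upstream TSS, overlapped no other factor.

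Ccr10, the receptor for CCL27 and CCL28 in skin and mucosa (chr11:101034311-101036757, minus strand), had 2 JunB peaks and 1 peak in each other list. All lay in introns of Ezh1. The site at -19.4 kb carried JunB (place 2462), BATF (place 4967) and IRF4 (place 2189 in Junb-sufficient and 4616 in Junb-deficient cells), and the JunB peak at -26.2 kb (place 14382) overlapped no other factor. Since no peak was nearest to Ccr10, its counts describe a crowded region as much as the gene.

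Over the 9 genes, 26 of 53 JunB peaks were shared with BATF and IRF4, or 49.1% (95% interval 35.1 to 63.2%), against 34.1% of all JunB peaks within 50 kb of a protein-coding TSS. JunB peaks overlapping BATF were 30 of 53 (56.6%, interval 42.3 to 70.2%), against 37.4%, and BATF peaks overlapping JunB were 29 of 39 (74.4%, interval 57.9 to 87.0%), against 69.9%. IRF4 peaks of Junb-sufficient cells at JunB were 36 of 57 (63.2%, interval 49.3 to 75.6%), against 38.5%. Shared peaks were thus more frequent around the receptor genes than around protein-coding genes at large, except among BATF peaks, where the interval held the share at large. Where the receptor was the nearest protein-coding gene, 12 of 34 JunB peaks were shared with BATF and IRF4 (35.3%, interval 19.7 to 53.5%). That share was near the 34.1% at large.

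Place in the list moved with these shares. The median JunB peak of the receptor genes stood 26.0% of the way down its list, against 46.4% for JunB peaks near protein-coding genes, and the medians were 40.2% against 50% for BATF, 18.4% against 50.2% for Junb-sufficient IRF4 and 22% against 50% for Junb-deficient IRF4. Peaks high in the JunB list overlapped both other factors far more often, 84.7% in the first bin and 9.91% in the last. With each JunB peak given the share of its own bin, 25.5 shared peaks would be listed, and 26 were. The same calculation gave 27.4 JunB peaks with BATF (30 listed), 29.7 BATF peaks with JunB (29 listed) and 36.8 IRF4 peaks at JunB (36 listed). At equal place in the list, the receptor genes were therefore within 3 peaks of the list at large in all 4 counts.

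By distance, 22 of the 28 merged sites with JunB, BATF and IRF4 lay beyond 10 kb and 6 within it. The zone beyond 10 kb is the larger part of the window, and merged sites were not counted at other genes. The 6 were those of Ccr7 at +4.39 kb, Cxcr5 at -2.03 kb, Cxcr3 at -3.1 kb, Ccr9 at -1.03 kb, Ccr8 at -1.09 kb and Ccr4 at +8.71 kb. At the last 2, no single JunB peak touched both other factors. Counted by single JunB peaks within 10 kb of a receptor TSS, 4 of 19 JunB peaks were shared with BATF and IRF4 (21.1%, interval 6.05 to 45.6%), against 33.1% near protein-coding genes. Between 10 and 50 kb, 22 of 34 were shared (64.7%, interval 46.5 to 80.3%), against 34.9%. Those 34 lay beyond 10 kb of a receptor TSS, but some were near another gene. The Ccr10 peak at -19.4 kb, for instance, was 407 bp from a TSS of Ezh1. The distal peaks at large here and below lay beyond 10 kb of every protein-coding TSS, so the sets differ. By bin of the list, 7.02 and 18.8 shared peaks would be listed. The proximal count rested on the narrow JunB peaks. With every peak set to 600 bp, 9 of 19 proximal JunB peaks (47.4%, interval 24.4 to 71.1%, against 36.1%) and 23 of 34 distal ones (67.6%, interval 49.5 to 82.6%, against 38.0%) were shared. By bin at this width, 7.6 and 19.9 would be shared. The division by distance was made after the values were seen.

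BATF without JunB was the smaller class. Of the BATF peaks, 10, at 6 genes, overlapped no JunB peak, 8 of them with IRF4 in Junb-sufficient cells. Of these 8, the 6 at Ccr7, Cxcr5, Ccr6 and Ccr4 were kept in Junb-deficient cells and the 2 at Ccr8 were not. Conversely, 13 of 53 JunB peaks (24.5%, interval 13.8 to 38.3%, against 47.8%) overlapped neither BATF nor IRF4 of Junb-sufficient cells, and 18.8 would be listed by bin. Of these, 4 were at Ccr9 and 3 at Ccr7, and 2 of the 13 overlapped an IRF4 peak of Junb-deficient cells.

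The comparison of IRF4 between genotypes asks whether IRF4 stays at its sites without JunB. Of the 57 IRF4 peaks of Junb-sufficient cells, 47 were kept and 10 (17.5%, interval 8.75 to 29.9%) had no counterpart, against 34.3% near protein-coding genes. At JunB, 4 of 36 were missing (11.1%, interval 3.11 to 26.1%), against 23.4%, and away from JunB 6 of 21 (28.6%, interval 11.3 to 52.2%), against 41.1%. The interval lay below the share at large for all 57 peaks, and held it for each of the 2 classes. With centres within 200 bp in place of overlap, 17 of 57 were missing (29.8%, interval 18.4 to 43.4%), against 40.6%, and the interval held that share. The missing peaks belonged to 5 of the 9 genes, a property of 49.3% of all genes. They numbered 4 at Ccr8, 2 at Ccr2, 2 at Cxcr3, 1 at Ccr7 and 1 at Ccr9, and all 4 at JunB were among those of Ccr7, Ccr2 and Cxcr3.

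This low share again moved with the place in the list. With each IRF4 peak given the share of its own bin and of its JunB status, 11.3 peaks would be missing (4.91 at JunB and 6.39 away from it), and 10 were (4 and 6). With centres within 200 bp, 14.7 would be missing by bin, and 17 were. By overlap, about as many IRF4 peaks of the receptor genes were thus missing as among peaks of the same standing over the whole list. The Junb-deficient IRF4 library held 21127029 tags, 11.15% of them in peaks, against 23914441 and 12.76% for the Junb-sufficient one. What this difference adds to the missing peaks was not tested. Of the 10 missing peaks, 6 stood in the first 50% of the list, but only that of Ccr7 in its first bin. In the reverse direction, 8 of 55 IRF4 peaks of Junb-deficient cells (14.5%, interval 6.50 to 26.7%) had no counterpart in Junb-sufficient cells, against 30.2%, and 9.29 would be listed by bin. At JunB there were 2 of 33 (6.06%), against 7.63%. These peaks fell at 5 genes, Ccr9, Ccr6, Ccr7, Cxcr5 and Ccr8, a property of 46.1% of all genes.

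Among the 47 kept peaks, the median place moved by 0.835 percentage points down the list in Junb-deficient cells, against 0.206 for kept peaks near protein-coding genes. It moved down for 28 (59.6%, against 51.0% near protein-coding genes) and up for 19. Large falls, at Ccr8 -42.5 kb, Cxcr5 -22.7 kb and Cxcr3 -32.9 kb, and the largest rises, at Cxcr5 -29.2 kb, Ccr4 -13.7 kb and Ccr9 -17.2 kb, were at sites over 30% of the way down at least 1 of the lists. Of the 18 kept peaks in the first bin, 15 stayed within the first 10% of the Junb-deficient list. The 3 that left it were at Ccr7 +49.9 kb (8.0% to 12%), Ccr9 +1.38 kb (9.37% to 14.4%) and Ccr10 -19.3 kb (7.04% to 15.9%). Since places depend on the number and spread of all peaks in each library, and each genotype had 1 library, these shifts have no measure of error.

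**Figure D4:**
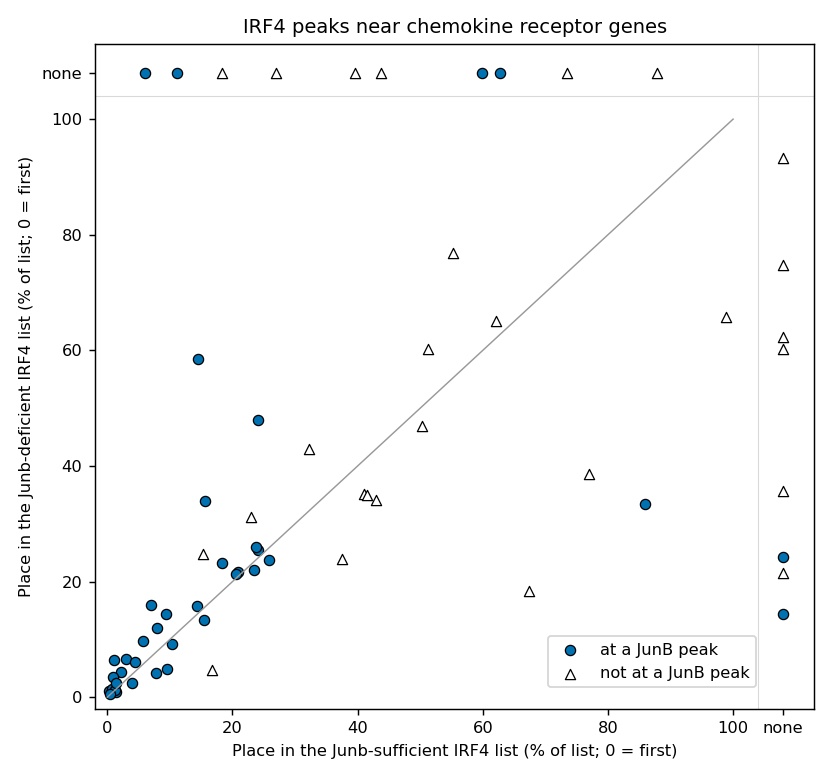
Place of each IRF4 peak of the receptor genes in the Junb-sufficient list (x axis) and the Junb-deficient list (y axis), in percent of the list with the strongest peaks at 0; filled circles lie at a JunB peak and open triangles do not. The top strip holds the 10 peaks with no Junb-deficient counterpart, the right strip the 8 with no Junb-sufficient counterpart, and the diagonal marks equal places.

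Motif matches were counted in windows of 201 bp around the peak centre. AP-1 was found in 12 of 53 JunB peaks (22.6%, interval 12.3 to 36.2%), against 27.3% of JunB peaks near protein-coding genes, and AICE in 5 of 53 (9.43%, interval 3.13 to 20.7%), against 3.95%. The IRF repeat was found in 1 of 53 (1.89%), against 6.55%. In IRF4 peaks of Junb-sufficient cells, AP-1 was found in 13 of 57 (22.8%), against 25.4%, AICE in 4 of 57 (7.02%), against 3.75%, and the IRF repeat in 1 of 57 (1.75%), against 8.87%. Counting error is wide at these numbers, and the intervals for the JunB peaks held the shares at large for AP-1, AICE and the IRF repeat. In IRF4 peaks of Junb-deficient cells, the IRF repeat was found in 1 of 55 (1.82%, interval 0.046 to 9.72%), against 11.1%, a share above the interval. Of the 3 motifs in the 4 lists, this was the only case where the interval missed the share at large. Place in the list was not taken into account for motifs. Within the 151 bp of the JunB peaks themselves, 15 of 53 held any of the motifs. These were 8 of the 26 shared with BATF and IRF4, 6 of the 10 with IRF4 alone, none of the 4 with BATF alone and 1 of the 13 with neither.

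Other receptors and the ligands of the 9 receptors were counted in the same way. Of 14 other chemokine receptor genes, 12 had a JunB peak, 10 a BATF peak and 12 an IRF4 peak in Junb-sufficient cells, and 10 had a JunB peak shared with BATF and IRF4. Over all protein-coding genes these shares were 64.8%, 48.9%, 74.0% and 35.1%. The median of the 14 genes had 4 JunB, 2.5 BATF and 4 IRF4 peaks. Ackr3 and Ackr4 had no peak in any list, while Ackr1 had 1 JunB peak and Ackr2 had 3, with 2 of them shared. Several of these genes share peaks with the 9 receptors, since Ccr3 lies near Ccr2, Cxcr6 adjoins Ccr9 and Cx3cr1 adjoins Ccr8. Of these 14 genes, 11 had an IRF4 peak without a counterpart, a property of 49.3% of all genes. Number of peaks and place in the list were not taken into account in this count. Among 14 ligand genes found in the annotation, 10 had a JunB peak, 8 a BATF peak and 8 a JunB peak shared with BATF and IRF4. Over all genes these shares were 64.8%, 48.9% and 35.1%. An IRF4 peak without a counterpart was listed at 5 of the 14, against 49.3% of all genes. Peaks that ligand genes share with one another were not set apart. Cxcl9 and Cxcl10, ligands of Cxcr3, each had 5 JunB peaks, 3 of them shared, as did Ccl20, the ligand of Ccr6, with 2 shared. Ccl19 and Ccl21a, the ligands of Ccr7, and Ccl2 and Ccl7, the ligands of Ccr2, had none.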

How the data were processed

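JunB, BATF and IRF4 ChIP-seq of Treg cells was analysed from 4 deposited peak lists, 1 per condition. Reads had been mapped by the authors with Bowtie2 (mm9), and peaks called with HOMER (4.8 in the submitters' processing notes) in each library by itself, at a false discovery rate of 0.001, at least 4-fold over the surrounding 10 kb and at most 1 tag per bp. The deposited score is 1 for every peak and was not used. Listed widths are 151 bp for JunB and 605 to 613 bp for BATF and IRF4, which affects overlap. TSSs came from GENCODE for the same assembly (NCBIM37, also called mm9). Peaks were assigned to a gene when their centre lay within 50 kb of any of its TSSs, and overlap of at least 1 bp counted as shared. A kept IRF4 peak overlaps an IRF4 peak of the other genotype. Lists were cut into 10 equal parts by place to compare peaks of like standing. Intervals are exact Clopper-Pearson 95% intervals. Procedures were tested on simulated data. Python 3.11.15, NumPy 2.4.6, pandas 2.3.3, SciPy 1.17.1 and matplotlib 3.10.9 were used. All 9 genes are named, with every JunB peak shared with BATF and IRF4, every unmatched IRF4 peak, the nearest peaks and peaks over a TSS. Single peaks at 1 locus near Ccr2 are counted but not reported here. The genes and lists were chosen with earlier results of these data known. Alternatives were the window, the overlap, the first 50% of the lists, the TSS set and the exchanged label.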

Additional observations from a re-analysis of the deposited data

How the results depend on the processing

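For 9 results, values were recomputed under 9 alternatives, 2 of them chosen after seeing the data (Ccr9 without its far upstream TSS, and only peaks with the receptor as nearest gene). Of the 81 values, 65 moved by less than their interval or by less than 1.5 times, but some could not move. The numbers of peaks do not depend on how overlap is defined. Exchanging the BATF and IRF4 libraries cannot alter which JunB peaks are shared with both. With TSSs of protein-coding transcripts, no value changed. Within 10 kb of a TSS the numbers were 19 JunB, 10 BATF, 15 IRF4 (Junb-sufficient) and 12 IRF4 (Junb-deficient) peaks, 21.1% of JunB peaks were shared with BATF and IRF4, 30% of IRF4 peaks at JunB lacked a counterpart (3 of 10), and 4 genes had a shared JunB peak. Within 100 kb there were 89 and 86 IRF4 peaks. With centres within 200 bp counted as shared, 29.8% of IRF4 peaks of Junb-sufficient and 27.3% of Junb-deficient cells had no counterpart, and with the BATF and IRF4 libraries exchanged 41.8% of the latter. With every peak 600 bp wide, 60.4% of JunB peaks were shared with BATF and IRF4, and setting this width by distance was also chosen after seeing the data. The first 50% of the lists kept 24 BATF peaks. With the receptor as nearest gene, 34 JunB, 22 BATF, 31 IRF4 (Junb-sufficient) and 30 IRF4 (Junb-deficient) peaks remained. Of those 34 JunB peaks, 12 were shared with BATF and IRF4 (35.3%), near the 34.1% at large, and 7 genes had a shared JunB peak. No paired analysis was possible because each condition had 1 library.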
